A study of Mus musculus with 6 samples.

Results

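The 9 genes described here encode enzymes of the tricarboxylic acid (TCA) cycle on the stretch from citrate to succinate: citrate synthase (Cs), the subunits of NAD-dependent isocitrate dehydrogenase (Idh3a, Idh3b and Idh3g), mitochondrial NADP-dependent isocitrate dehydrogenase (Idh2), the dehydrogenase and succinyltransferase components of the oxoglutarate dehydrogenase complex (Ogdh and Dlst), and the alpha and GTP-specific beta subunits of succinyl-CoA ligase (Suclg1 and Suclg2). The rule that defines them uses their place in the pathway and no measured value, though results of these data were known when it was set, and each is represented by its brightest probe set among those annotated to that gene alone. All 9 were measured, among 18193 genes in all, and they hold 23 probe sets.

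Expression was measured on 6 Affymetrix arrays, 1 per sample. Of these samples, 3 are macro-dissected cystic renal epithelium labelled as coming from Fh1 knockout mice, and 3 are renal epithelial tissue of sex-matched, disease-free wild-type littermates. Fh1 encodes fumarate hydratase, the cycle enzyme that adds water to fumarate to give malate. The labels give neither age and strain of the mice nor the allele and any Cre driver. They do not tie each sample to an animal of its own either, so p-values measure only the spread between these samples, which may be technical. Values are on the log2 scale of RMA (robust multi-array average), and they cannot be set against each other between probe sets as levels.

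The TCA cycle runs in the mitochondrial matrix and oxidises acetyl groups to carbon dioxide while it charges the electron carriers of the respiratory chain. Isocitrate and oxoglutarate dehydrogenases carry out its decarboxylating steps, and succinyl-CoA ligase then releases succinate with the formation of a nucleoside triphosphate. Succinate dehydrogenase turns succinate into fumarate, the substrate of the enzyme encoded by Fh1. Tubule cells of the kidney, above all those of the proximal tubule, are rich in mitochondria and depend on this cycle for the energy of reabsorption.

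Expression of 8 of the 9 genes was lower in the knockout samples, by 1.41-fold to 2.39-fold, and that of Cs did not pass the test. The test was limma's moderated test over all 18193 genes with Benjamini-Hochberg adjustment and a threshold of 0.05, and adjusted p-values of the 8 genes ran from 0.000123 to 0.00358. Over all genes, 49.2% were called, 27.7% lower and 21.6% higher, so a large share of the transcriptome differed between these groups. Lower genes made up 56.2% of all calls, 67% when each array was centred on its median gene, 47.3% at a threshold of 0.01, and 44.2% among the 9097 brighter genes (mean signal not under the median), where all 9 members lie. The median log2 fold change of those brighter genes was 0.05. The median log2 fold change was -0.75 over the 9 genes and -0.11 over all genes tested. A log2 fold change at or below -0.75 was found for 6.01% of all genes.

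The promoters of 3 of these genes are shown because Cs was the member that did not pass, Ogdh the one with the largest difference at its brightest probe set, and Idh3g the one whose promoter matched most of the motifs searched. Each is the stretch of 250 bases before the transcription start in RefSeq on GRCm38.p6, written 5′ to 3′ on the strand of the gene, with matches to the motifs in capitals.
Cs promoter, chr10:128337477-128337726, plus strand: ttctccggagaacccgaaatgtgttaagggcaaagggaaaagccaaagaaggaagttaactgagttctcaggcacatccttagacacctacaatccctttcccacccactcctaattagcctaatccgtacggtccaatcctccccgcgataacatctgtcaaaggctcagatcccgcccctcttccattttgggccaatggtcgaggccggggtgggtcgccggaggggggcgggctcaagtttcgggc
Ogdh promoter, chr11:6291347-6291596, plus strand: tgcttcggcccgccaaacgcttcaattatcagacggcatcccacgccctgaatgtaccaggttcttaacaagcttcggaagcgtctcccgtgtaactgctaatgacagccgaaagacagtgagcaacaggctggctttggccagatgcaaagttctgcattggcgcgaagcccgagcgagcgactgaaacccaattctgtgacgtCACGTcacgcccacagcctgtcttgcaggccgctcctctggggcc
Idh3g promoter, chrX:73786898-73787147, minus strand: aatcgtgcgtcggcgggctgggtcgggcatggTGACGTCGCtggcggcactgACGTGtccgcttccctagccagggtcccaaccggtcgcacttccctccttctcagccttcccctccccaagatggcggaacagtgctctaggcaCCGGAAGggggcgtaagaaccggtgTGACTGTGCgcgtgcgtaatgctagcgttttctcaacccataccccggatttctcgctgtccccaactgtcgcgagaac

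RefSeq promoter windows were found for 8 of the 9 genes. Ogdh has several starts, and the window of the most upstream one is printed. Searched on both strands were GCATGCG, the core of the nuclear respiratory factor 1 site, CCGGAAG, that of ETS factors such as GABPA, AAGGTCA, that of oestrogen-related receptors, ACGTG, the hypoxia response core, and TGACNNNGC, the antioxidant response core. Idh3g matched the ETS core once, the hypoxia core once and the antioxidant core at 2 positions. Ogdh matched the hypoxia core in each of its 6 windows, some of which overlap, and in the 2 most downstream ones also the nuclear respiratory factor core. Dlst matched the antioxidant core, and no match to any of these letters was found in the windows of Cs, Idh3b, Idh2, Suclg1 or Suclg2. Among all 32851 windows of that length, 3.02% held the nuclear respiratory factor core, 6.91% the ETS core, 4.08% the oestrogen-related receptor core, 16.6% the hypoxia core and 10.2% the antioxidant core. Such matches describe letters in a window and not sites that are bound.

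Citrate synthase joins acetyl-CoA to oxaloacetate and so opens the cycle. Cs read 11.57, 11.57 and 11.50 in wild-type samples 1 to 3 and 11.60, 11.64 and 11.72 in knockout samples 1 to 3 (probe set 1450667_a_at). The knockout values lay above all wild-type values, but by 0.03 at the nearest. The difference of 0.11 on the log2 scale (SE 0.08) had a limma adjusted p of 0.27. Its 95% interval runs from 95.1% to 122% of the wild-type level. The other probe sets of Cs, 1422578_at and 1422577_at, had log2 fold changes of -0.10 and -0.12 (adjusted p = 0.474 and 0.257 over all 45037 non-control probe sets). No probe set of Cs passed the test, and their signs differed: the mean over them gave -0.04, and centring each array on its median gene gave 0.03 for the brightest.

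NAD-dependent isocitrate dehydrogenase converts isocitrate to oxoglutarate; its alpha subunit carries the catalytic site, and beta and gamma are needed for activity and regulation. All subunit genes fell, by similar amounts. Idh3a (1432016_a_at) read 11.88, 12.02 and 11.79 in wild-type and 11.36, 11.38 and 11.48 in knockout samples, a 1.41-fold difference (log2 fold change -0.49, SE 0.09, adjusted p = 0.00358). Idh3b (1418886_s_at) read 12.39, 12.48 and 12.34 against 11.79, 11.76 and 11.85, which is 1.52-fold lower (log2 fold change -0.60, SE 0.08, adjusted p = 0.000836). For the X-linked Idh3g (1416788_a_at) the wild-type values were 12.43, 12.48 and 12.40 and the knockout values 11.80, 11.75 and 11.83, a fall of 1.56-fold (log2 fold change -0.64, SE 0.08, adjusted p = 0.000465). In each subunit the groups were separated by more than the range within either group, with gaps of 0.32, 0.49 and 0.57.

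Idh2 encodes the NADP-dependent enzyme of the matrix, which catalyses the same conversion with another cofactor and can also run in reverse. Idh2 (1450048_a_at) read 11.77, 11.60 and 11.99 in wild-type and 10.75, 10.73 and 10.92 in knockout samples. It was 1.98-fold lower in the knockout (log2 fold change -0.99, SE 0.12, adjusted p = 0.000489). Its wild-type range of 0.39 was the widest of the 9 genes, and it was still smaller than the gap of 0.68 between the groups. The mean over both probe sets of Idh2 gave -0.55, because the other one was dim (mean of the 6 arrays 6.47) and had a log2 fold change of -0.11.

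The oxoglutarate dehydrogenase complex turns oxoglutarate into succinyl-CoA, and Ogdh, its substrate-binding dehydrogenase, showed the largest difference of the 9 genes at their brightest probe sets. Ogdh (1451274_at) read 11.36, 11.32 and 11.60 in wild-type and 10.19, 10.03 and 10.27 in knockout samples. This is a 2.39-fold fall (log2 fold change -1.26, SE 0.11, adjusted p = 0.000123), with a gap of 1.04 between the groups against ranges of 0.28 and 0.24 within them. Averaged with its dim second probe set (mean 6.81), Ogdh had a log2 fold change of -0.78, and by such means Suclg2 (-0.92) and Suclg1 (-0.82) fell more.

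Dlst, the succinyltransferase core of the same complex, fell 1.68-fold. Its brightest probe set, 1423710_at, read 11.34, 11.40 and 11.53 in wild-type and 10.70, 10.59 and 10.75 in knockout samples (log2 fold change -0.75, SE 0.09, adjusted p = 0.00051). Its probe sets included calls in both directions. Among the dimmer ones, 1431011_at was lower (log2 fold change -0.68, adjusted p = 0.0012), 1430161_at did not pass (0.11, adjusted p = 0.44) and 1437775_at was higher (0.41, adjusted p = 0.0205). The mean over these probe sets gave -0.23 with adjusted p = 0.0591, so the call of Dlst rests on its brightest probe set and on 1431011_at.

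Succinyl-CoA ligase releases succinate and pairs one shared alpha subunit with a GTP-specific or an ATP-specific beta subunit. Suclg1, the alpha subunit (1415891_at, its 1 probe set), read 12.29, 12.38 and 12.41 in wild-type samples and 11.55, 11.55 and 11.54 in knockout samples. Its knockout values spanned 0.01, the narrowest range of the members, and lay 1.76-fold below wild-type (log2 fold change -0.82, SE 0.08, adjusted p = 0.000175). Suclg2, the GTP-specific beta subunit (1435841_s_at), read 12.36, 12.23 and 12.50 against 11.41, 11.32 and 11.51, a fall of 1.94-fold (log2 fold change -0.95, SE 0.10, adjusted p = 0.000275). Its second probe set, 1427441_a_at, gave -0.90 with adjusted p = 0.000386.

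**Figure D1:**
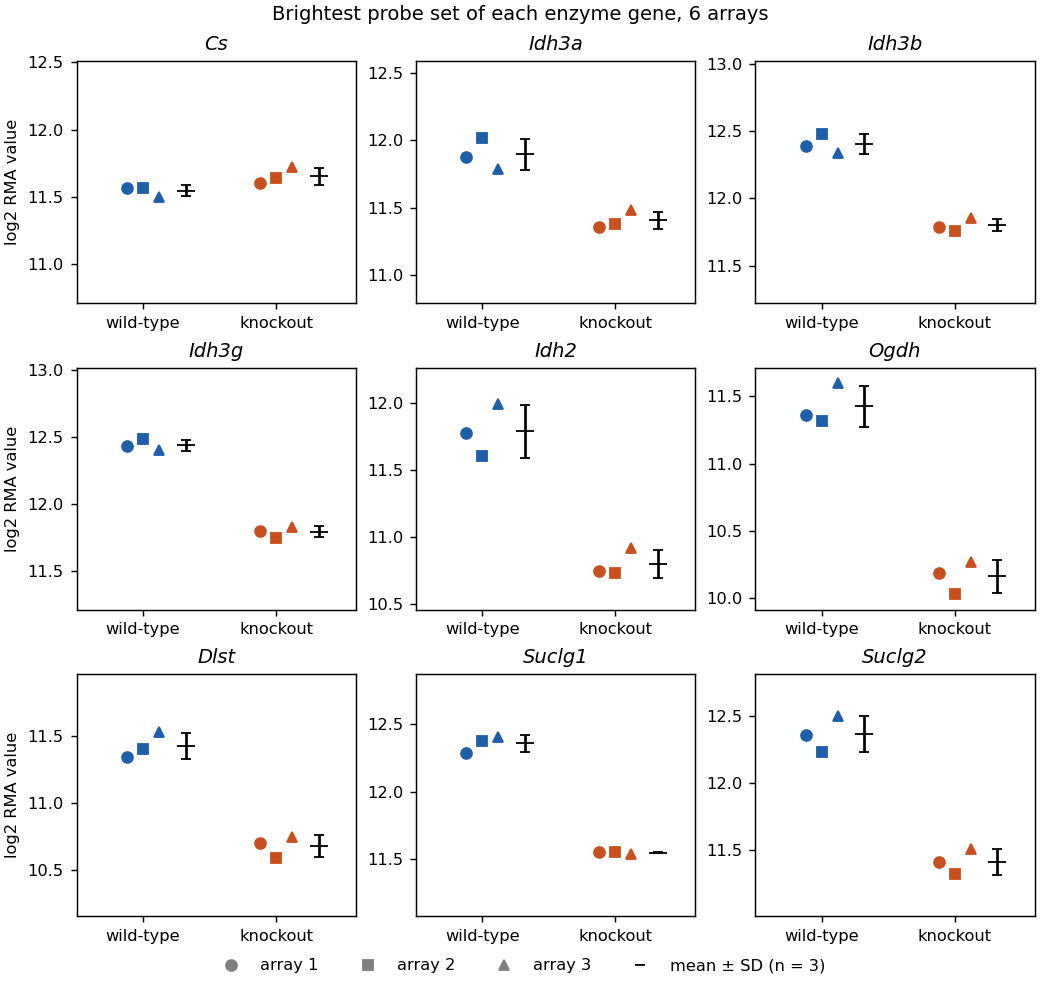
Log2 RMA value of the brightest probe set of each gene (vertical axis, the same span of 1.8 units in every panel) in 3 wild-type (blue) and 3 knockout (orange) arrays, with the symbol giving the sample number and the black bar the mean ± SD. In 8 panels every knockout array lies below every wild-type array, and in the Cs panel the knockout arrays lie slightly above.

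In 8 of the 9 genes the highest knockout value was lower than the lowest wild-type value, an order shown by 37.1% of all genes tested. Cs had the opposite order, as did 25.7% of all genes, so that 62.9% of genes had groups without overlap. Spread among replicates was small. The median SD of the 9 genes was 0.0992 among wild-type and 0.0609 among knockout arrays, against 0.138 and 0.0857 over all genes. Every member was bright: the dimmest of the 9 representative probe sets exceeded 92.7% of genes in mean signal. The SD of other genes as bright as these is not given here.

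Beside the brightest probe sets, the 9 genes have 14 others. Of these, 7 were called lower, 1 higher and 6 neither, in a fit over 45037 probe sets of which 44.0% were called, 23.4% lower and 20.6% higher. Those called neither were the pair of Cs, the dim ones of Idh2 and Ogdh, 1430161_at of Dlst and 1441271_at of Idh3b, which read on average 5.64 and had a log2 fold change of -0.40 (adjusted p = 0.0789). Idh3a had 4 probe sets, all called lower, with log2 fold changes of -0.49, -0.84, -0.88 and -0.48. The second probe set of Idh3g, 1416789_at, gave -0.75 (adjusted p = 0.000242) and that of Idh3b, 1418885_a_at, gave -0.57 (adjusted p = 0.00104). In the array maker's naming, the s and x in a probe set's name mark probes that may also match transcripts of other genes. That touches the brightest probe sets of Idh3b and Suclg2. Of the 4 probe sets of Idh3a, it touches 1422501_s_at (-0.84) and 1447701_x_at (-0.48).

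**Figure D2:**
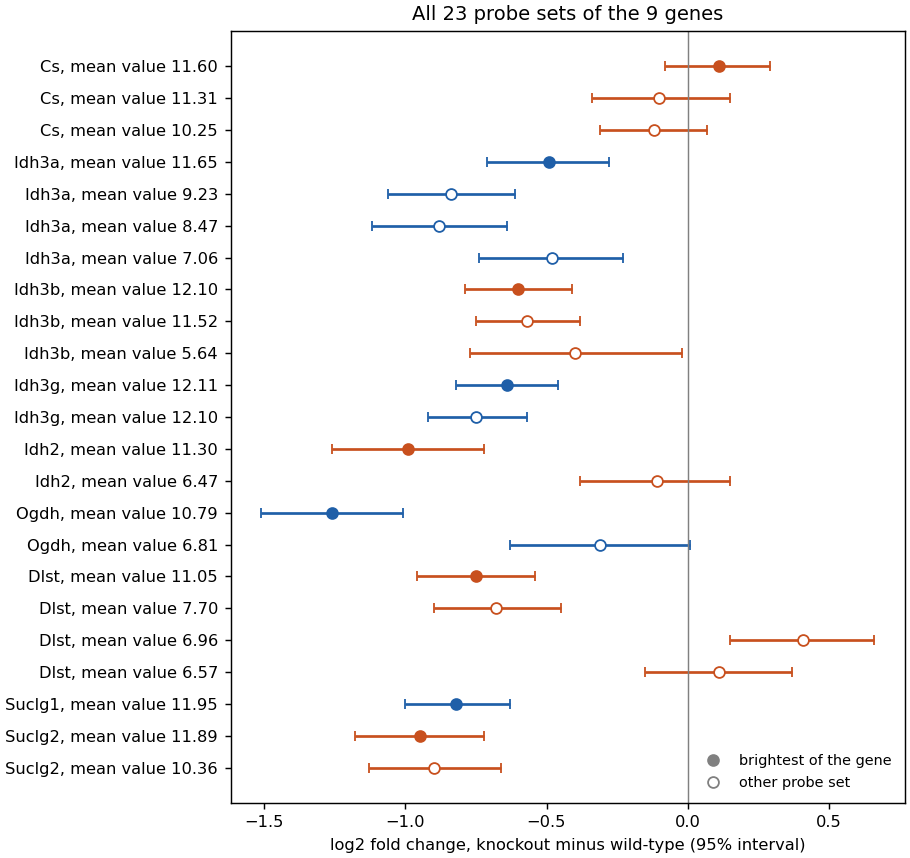
Log2 fold change, knockout minus wild-type, with limma's 95% interval for each of the 23 probe sets, with the mean value of the 6 arrays beside the gene name. Filled points are the brightest probe set of a gene and open points the others; colours alternate by gene, and the 1 probe set called higher is that of Dlst at a mean value of 6.96.

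Differences within an enzyme or step were compared as the difference of 2 log2 values on the same array, which removes any shift shared by an array. For these 8 pairs an exact two-sided permutation test of 3 against 3 arrays cannot give a p below 0.1, and none passes 0.05 (0.133 is the smallest Benjamini-Hochberg value over the 8 pairs). Cs minus Idh3a was -0.31, -0.46 and -0.30 in wild-type arrays and 0.24, 0.26 and 0.25 in knockout arrays, a shift of 0.60 against a within-group SD of 0.06 (exact p = 0.1). Ogdh minus Dlst moved from 0.02, -0.08 and 0.06 to -0.51, -0.56 and -0.47, a shift of -0.51 with SD 0.06 (exact p = 0.1). In both pairs the groups were separated by several times their spread.

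Within the NAD-dependent enzyme the shifts were small. Idh3a fell less than Idh3b by 0.11 (SD 0.04, exact p = 0.1) and less than Idh3g by 0.15 (SD 0.06, exact p = 0.1), with no overlap between groups, but the 4 probe sets of Idh3a differ among themselves by more than that. By the mean over probe sets, Idh3a (-0.67) fell more than Idh3b (-0.52) and slightly less than Idh3g (-0.69). Idh3b and Idh3g differed by 0.04 (SD 0.02, exact p = 0.2) and their groups overlapped. Idh2 minus Idh3a shifted by -0.49 with a wide SD of 0.22 (exact p = 0.1). This order also depended on the probe sets: their means gave log2 fold changes of -0.55 for Idh2 and -0.67 for Idh3a. Within succinyl-CoA ligase, Suclg1 minus Suclg2 shifted by 0.14 (SD 0.12, exact p = 0.3) and the groups overlapped. That shift was 0.09 without wild-type 3 or without knockout 2, and 0.21 without wild-type 2. Suclg2 minus Sucla2, the GTP-specific against the ATP-specific beta subunit, went from 0.32, 0.27 and 0.54 to 0.09, -0.05 and 0.08, a shift of -0.34 (SD 0.11, exact p = 0.1).

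**Figure D3:**
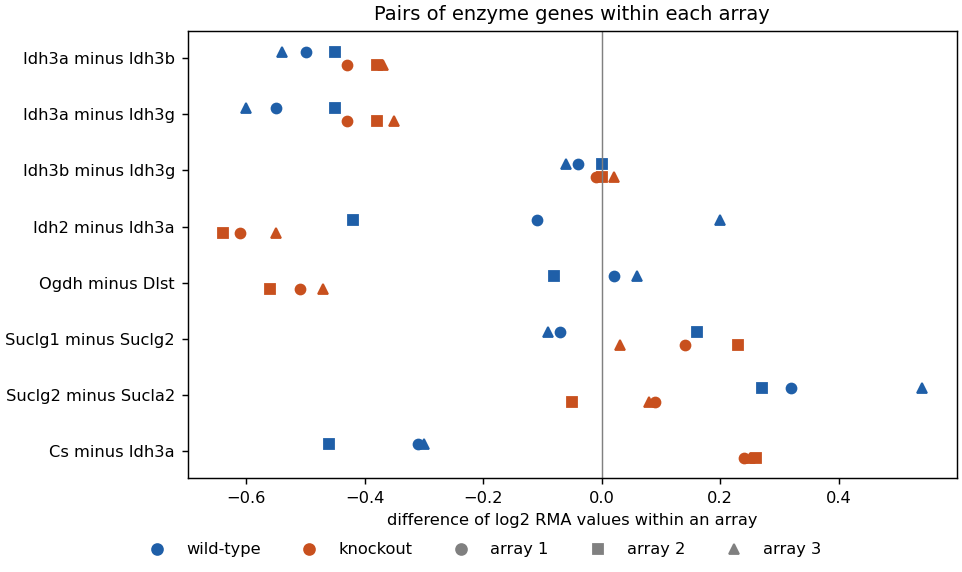
Difference of the log2 RMA values of 2 genes within an array (horizontal axis) for 8 pairs, with wild-type arrays in blue, knockout arrays in orange and the symbol giving the sample number. Groups overlap for Idh3b minus Idh3g and for Suclg1 minus Suclg2, and stand farthest apart for Cs minus Idh3a and Ogdh minus Dlst.

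The remaining genes of the cycle were lower as well. All 8 measured ones were called lower, against 27.7% of all genes, with a median log2 fold change of -0.67. Dld, the dihydrolipoamide dehydrogenase shared by the oxoglutarate and pyruvate dehydrogenase complexes, fell 1.73-fold. Sucla2, the ATP-specific beta subunit of succinyl-CoA ligase, read 12.03, 11.96 and 11.96 in wild-type and 11.32, 11.37 and 11.43 in knockout samples, a 1.53-fold fall (limma adjusted p = 0.000665), but the mean with its 2 dim probe sets gave -0.24 with adjusted p = 0.0514. Of the succinate dehydrogenase subunits, Sdhb fell 1.82-fold, the flavoprotein Sdha and the membrane anchor Sdhc each 1.59-fold and the other anchor Sdhd 1.57-fold. For Sdha the mean over its probe sets gave a log2 fold change of -0.32 in place of -0.67. Fh1, the targeted gene, read 12.41, 12.34 and 12.22 in wild-type and 11.54, 11.60 and 11.61 in knockout samples, a 1.67-fold difference with limma adjusted p = 0.000396. That fall lies within the range of the other 7 genes, from 1.19-fold for Mdh2 to 1.82-fold for Sdhb. Where its probe set lies relative to the deleted part is not known here.

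Mdh2, which makes the oxaloacetate that Cs consumes, had the smallest change among those 8 at their brightest probe sets. It read 13.49, 13.46 and 13.35 in wild-type and 13.16, 13.14 and 13.24 in knockout samples, a 1.19-fold difference (log2 fold change -0.25, SE 0.08, limma adjusted p = 0.0356). That call ended without wild-type 1 (-0.22, limma adjusted p = 0.0869), wild-type 2 (-0.24, 0.0735), knockout 1 (-0.24, 0.11), knockout 2 (-0.23, 0.107) or knockout 3 (-0.28, 0.0627). By the mean over probe sets Mdh2 gave -0.32 (adjusted p = 0.00877), and Sucla2 then had the smallest change of those 8, at -0.24.

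**Figure D4:**
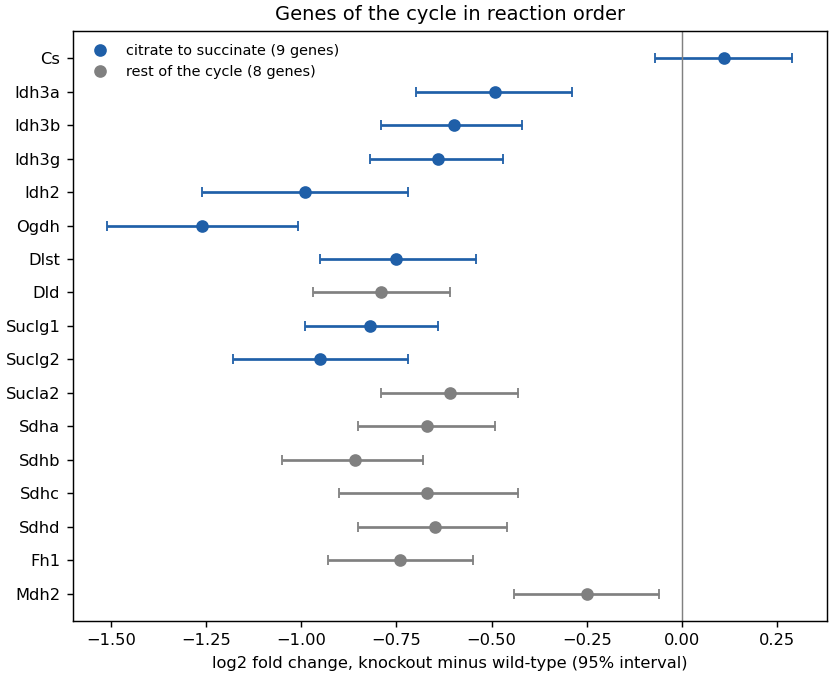
Log2 fold change, knockout minus wild-type, with limma's 95% interval for 17 genes from top to bottom in the order of the reactions, with the 9 genes from citrate to succinate in blue and the rest of the cycle in grey. The interval of Cs alone crosses 0, and Ogdh lies farthest to the left.

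Among 17 measured genes that make, use or carry oxoglutarate, citrate and related acids, 11 were called lower and 2 higher, against 27.7% and 21.6% of all genes, with a median of -0.55. Dhtkd1, a relative of Ogdh that acts on oxoadipate in lysine breakdown, fell 6.01-fold, and pyruvate carboxylase (Pcx), which feeds oxaloacetate into the cycle, 3.21-fold. The 2 called higher were Pck2, mitochondrial phosphoenolpyruvate carboxykinase, at 1.88-fold and Gpt2, mitochondrial alanine transaminase, at 1.67-fold. These 4 had limma adjusted p-values of 4.07e-05, 0.000172, 0.000642 and 0.00226. Idh1, the cytosolic NADP-dependent isocitrate dehydrogenase and counterpart of Idh2, stayed short of the threshold (limma adjusted p = 0.682) at a log2 fold change of -0.04 with SE 0.08; it is singled out after its value was seen.

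Genes of mitochondrial pores, protein import and chaperones, listed here together with the mitochondrial transcription genes Tfam and Polrmt, serve the organelle as a whole. Of 13 measured, 3 were called lower, a share near the 27.7% of all genes, and 0 higher, with a median of -0.11, the same as over all genes. Without wild-type 1, 1 of them was called higher. Called lower were the chaperonin Hspd1 (log2 fold change -0.42), the outer membrane channel Vdac1 (-0.40) and the mitochondrial RNA polymerase Polrmt (-0.39). The difference between this list and the enzyme genes was not tested.

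Genes whose 6 values, centred on their own mean, lay nearest to the mean profile of the 9 members were taken from the other 18184 genes. They were C030006K11Rik, Rhpn1, Ciao3, Sdha and Pdhx, with root mean square distances of 0.0172, 0.0261, 0.027, 0.0276 and 0.0311 log2 units over 6 arrays. That mean profile was 0.33, 0.34 and 0.40 in wild-type and -0.37, -0.41 and -0.29 in knockout arrays. Among the members themselves, Dlst (0.0428), Idh3g (0.0579) and Suclg1 (0.0702) lay closest to it, and Cs (0.413) and Ogdh (0.284) farthest.

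The arrays of each group did not rank the members alike. Within the wild-type group, Idh3a, Idh3b and Idh3g were highest in wild-type 2 and lowest in wild-type 3, whereas Idh2, Ogdh and Suclg2 were highest in wild-type 3 and lowest in wild-type 2. Among knockout arrays, 8 of the 9 genes were highest in knockout 3, by 0.24 or less over the lowest. Adipoq, an adipocyte hormone gene, read 10.73 in wild-type 2 and 10.30 in knockout 3 and at most 6.72 in the other arrays. Without those 2 arrays the same number of members, 8, was called lower. The part of Adipoq in the differences among arrays was not tested.

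Markers of nephron segments and of other cell types moved between the groups in the same samples, and their counts stand against 27.7% of all genes called lower and 21.6% higher. Proximal tubule markers were called lower in 9 of 12, with a median of -1.55; Slc6a19, a neutral amino acid transporter, fell 7.29-fold and Slc5a12, a lactate transporter, 6.68-fold. Of the 3 that did not pass, Aqp1, a water channel, read 97.6% and Slc17a1, a phosphate transporter, 98.1% of the wild-type level, and both are singled out after their values were seen. The third, Slc7a13, read 13.61, 11.35 and 13.45 in wild-type and 11.43, 11.64 and 11.55 in knockout samples. The summed level of the list (2 to the power of each value, added up), in which bright probe sets weigh most, ran from 71880 to 86003 in wild-type and from 34854 to 36527 in knockout samples. Loop and distal tubule markers were lower in 7 of 8 (median -1.20; sums 58335 to 67534 against 24650 to 32745), collecting duct markers in 4 of 7 (sums 6398 to 7381 against 3458 to 4691), and endothelial markers in 5 of 6 (3 without knockout 1; sums 2745 to 3897 against 1814 to 2203). Immune cell markers were higher in 9 of 11 (median 1.84, sums 4502 to 5965 against 10850 to 14578), with 1 lower when arrays were centred or quantile normalised. Fibroblast and matrix markers were higher in 6 of 9 (median 1.55, sums 3339 to 3855 against 8256 to 15676), with 1 of this list lower without knockout 3. The 6 called encode matrix proteins. The receptor genes Pdgfra (log2 fold change -0.54, limma adjusted p = 0.151) and Pdgfrb (0.43, 0.109) did not pass, nor did Lum (0.43, 0.599). In the immune list, Csf1r (0.36, 0.123) and Cd3e (-0.23, 0.0984) did not pass. Endothelial Cdh5 (0.18, 0.164) did not pass either, and its knockout values lay above all wild-type values, by 0.01 at the nearest. Most changed in these lists were Egf (12.2-fold) and Pvalb (12.5-fold) of the distal tubule, Slc26a4 (5.45-fold) and Slc4a1 (4.32-fold) of intercalated cells, and endothelial Emcn (1.76-fold) and Tek (1.73-fold), all lower. Higher were Laptm5 (5.08-fold) and C1qb (4.86-fold) of immune cells and Fn1 (7.25-fold) and Col3a1 (6.77-fold) of the matrix. In the collecting duct list, Foxi1, also of intercalated cells, did not pass (log2 fold change -0.12, limma adjusted p = 0.315). Aqp2 (-0.23, 0.179) and Scnn1g (-0.02, 0.918) did not pass either. The rest of that list, Aqp4 (-2.10, 4.73e-05) and Aqp3 (-0.74, 0.0332), was called lower. None of 4 adipocyte markers passed (1 lower without knockout 3, and 2 without wild-type 2 and knockout 3 together), with sums of 1266 to 5378 against 577 to 4626. No marker is at 0, because RMA gives every probe set a value. In these tissue samples fewer tubule cells and less RNA of these enzymes per cell cannot be told apart, and the part of the markers in the fall of the 8 genes was not tested. Knockout samples were cystic epithelium and wild-type samples disease-free tissue, so genotype and cyst state cannot be told apart either.

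**Figure D5:**
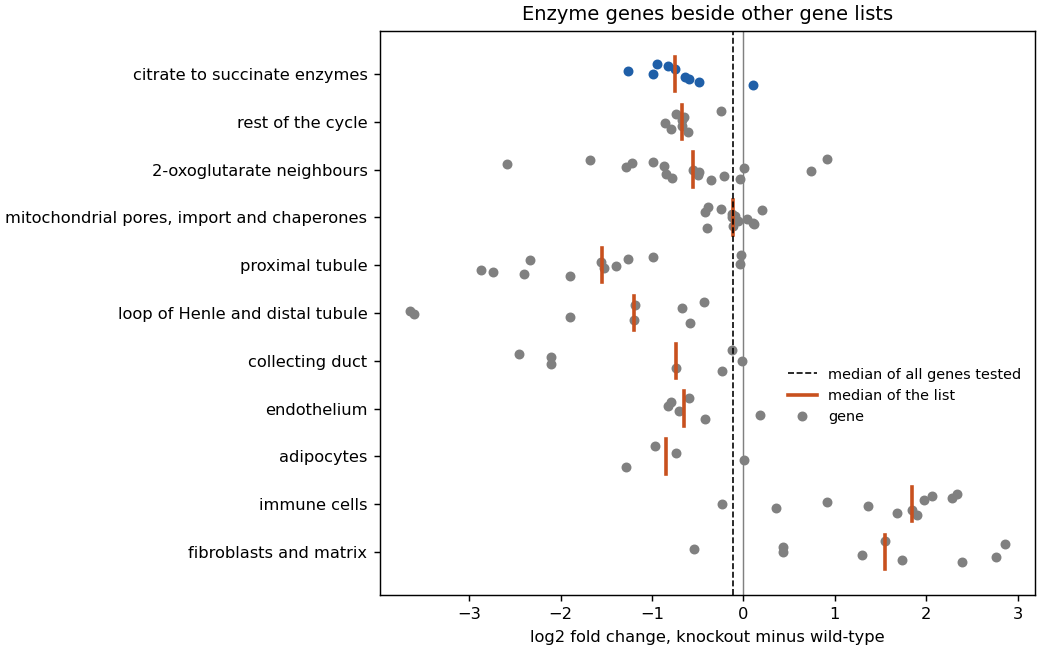
Log2 fold change, knockout minus wild-type, of each gene (points) in the 9 enzyme genes (blue) and in 10 other lists (grey), with the list median in orange and the median of all genes tested, -0.11, as the dashed line. The enzyme genes lie left of that line except Cs, the pore, import and chaperone genes around it, and most proximal tubule markers farther left.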

How the data were processed

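Expression values of 45101 probe sets in 6 samples were deposited by the authors, and were read here as log2 from their range of 2.90 to 14.82. The submitters' processing notes name RMA (version and chip definition not given in the sources used here). Background correction, normalisation across arrays and summary over the probes of a set are parts of this method, and it makes no detection call. Array medians ran from 6.20 to 6.25. With no read depth behind array values, precision rests on the 3 samples in each group and on the variance limma shares across genes.

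Probe sets were named through a platform annotation that can be old, with symbols updated by Entrez identifier to RefSeq. The annotation gave 1 gene to 34945 probe sets, more than 1 to 932 and no gene to 9160. The 64 controls were left out. The brightest probe set stood for each gene. The test was two-sided, in limma 3.58.1 under R 4.3.3 (lmFit, then eBayes), without covariate or filter, with Benjamini-Hochberg adjustment over 18193 genes. Its code was checked on simulated data with far fewer changed genes than were called here. That check does not measure how many changes are missed in these data. Other probe sets were read from a fit over 45037 probe sets. Pairs of genes were compared by exact permutation.

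The members and lists were chosen with earlier results of these data known. Named were all members, the rest of the cycle, the 2 called genes of each other list with the largest change in each direction and the 5 genes nearest the mean profile. Other listed genes that the text names fall outside this rule. They were added after the values were seen, such as Polrmt, Adipoq and the markers that did not pass. Some listed genes are not analysed here, nor are protein sequences. Alternatives were the mean of probe sets, a fit over all probe sets, a filter on dim genes, a trended robust prior, quantile normalisation or centring of the arrays, weighted arrays, the replicate number as a block, leaving out each array in turn, a threshold of 0.01 and, added after seeing the data, leaving out wild-type 2 and knockout 3 together. Python 3.11.15 and matplotlib 3.10.9 made tables and plots.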

Additional observations from a re-analysis of the deposited data

How the results depend on the processing

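The count of members called lower was 8 under every alternative listed except the mean of the probe sets, where it was 7, because Dlst gave -0.23 (adjusted p = 0.0591). Under that mean Cs changed sign, to -0.04 (adjusted p = 0.678), and 1 oxoglutarate-related gene was called higher in place of 2. Over the 6 fits that leave out 1 array, log2 fold changes ran from -0.55 to -0.43 for Idh3a, -0.63 to -0.56 for Idh3b, -0.66 to -0.62 for Idh3g, -1.08 to -0.89 for Idh2, -1.31 to -1.17 for Ogdh, -0.79 to -0.69 for Dlst, -0.85 to -0.79 for Suclg1, -1.02 to -0.88 for Suclg2 and 0.07 to 0.13 for Cs. Without wild-type 2 and knockout 3 together, the shift of Ogdh minus Dlst was -0.57 and that of Suclg1 minus Suclg2 was 0.26, beyond 1 within-group SD from the values above; the cause was not tested. Over all genes, 8959 were called at 0.05, 5011 at 0.01 and 5278 where the dimmer part of the genes was left out and 9097 were tested.

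Samples of the same number in the 2 groups did not deviate together (Pearson correlation across genes -0.0986, -0.126 and -0.125), and no sample correlated best with its own number. Such correlations cannot exclude that samples of the same number were paired, and the labels name no pairing. With the replicate number as a block, 8 members and 7 of the 8 other cycle genes were called lower (Mdh2 had adjusted p = 0.0934), and 7440 genes over all.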
